A study of Mus musculus with 12 samples.

Results

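The chemokine system of the mouse lung was followed after paraquat, a herbicide that damages the lung. The genes are the 59 of 20774 listed genes whose symbol names a CC, CXC or CX3C ligand, a receptor of these, or an atypical receptor (Ackr genes and Ccrl2). They comprise 36 ligands and 23 receptors, named by a rule on the symbol that uses no measured value. The mice were wild-type C57BL/6J, labelled as 8 weeks of age, and their lungs gave 12 libraries in 4 groups of 3. PQ 1w and PQ 4w mice had received a single intratracheal dose of paraquat in saline, and control 1w and control 4w mice had received saline. 1w and 4w are taken to mean weeks, and the dose is not given in the sources used here. Nothing in the labels says that replicates are separate animals, so a p-value measures the spread between libraries, which may be technical.

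Chemokines are small secreted proteins that form gradients and draw leukocytes into tissue through G protein-coupled receptors on those cells. In the lung, ligands of CCR2 recruit monocytes, ligands of CXCR2 recruit neutrophils, and ligands of CXCR3, CCR4 and CCR6 recruit subsets of T cells and dendritic cells. Atypical receptors bind chemokines without classical G protein signalling and remove, store or transport them. In whole-lung RNA, fewer cells of a type and less RNA per cell cannot be told apart.

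At 1w many ligand transcripts rose while most called receptors fell, and at 4w both ligands and receptors rose. A gene was called at an adjusted p under 0.05 in edgeR's quasi-likelihood test with Benjamini-Hochberg adjustment over the 15921 genes tested, of which 54 were among the 59. At 1w, 32 of the 54 were called, 17 higher and 15 lower in PQ, a share of 59.3% where 48.8% of all tested genes were called. Ligands and receptors parted: 14 ligands rose and 6 fell, while 3 receptors rose and 9 fell. At 4w, 25 were called, 21 higher and 4 lower, a share of 46.3% against 12.1% of all tested genes. Here 12 ligands rose and 2 fell, and 9 receptors rose and 2 fell. The count of 25 was 13 without control 4w replicate 1, and 12 with the 6 libraries from 4w fitted alone. In the upward direction alone 5.75% of all tested genes were called at 4w and 25.9% at 1w, and in the downward direction 6.39% and 22.9%. The median log2 fold change of the 54 was 0.11 at 1w and 0.62 at 4w, where the median over all tested genes was 0 at both times. PQ and control values did not overlap for 36 of the 54 at 1w and for 28 at 4w, against 58.7% and 31.2% of all tested genes.

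**Figure D1:**
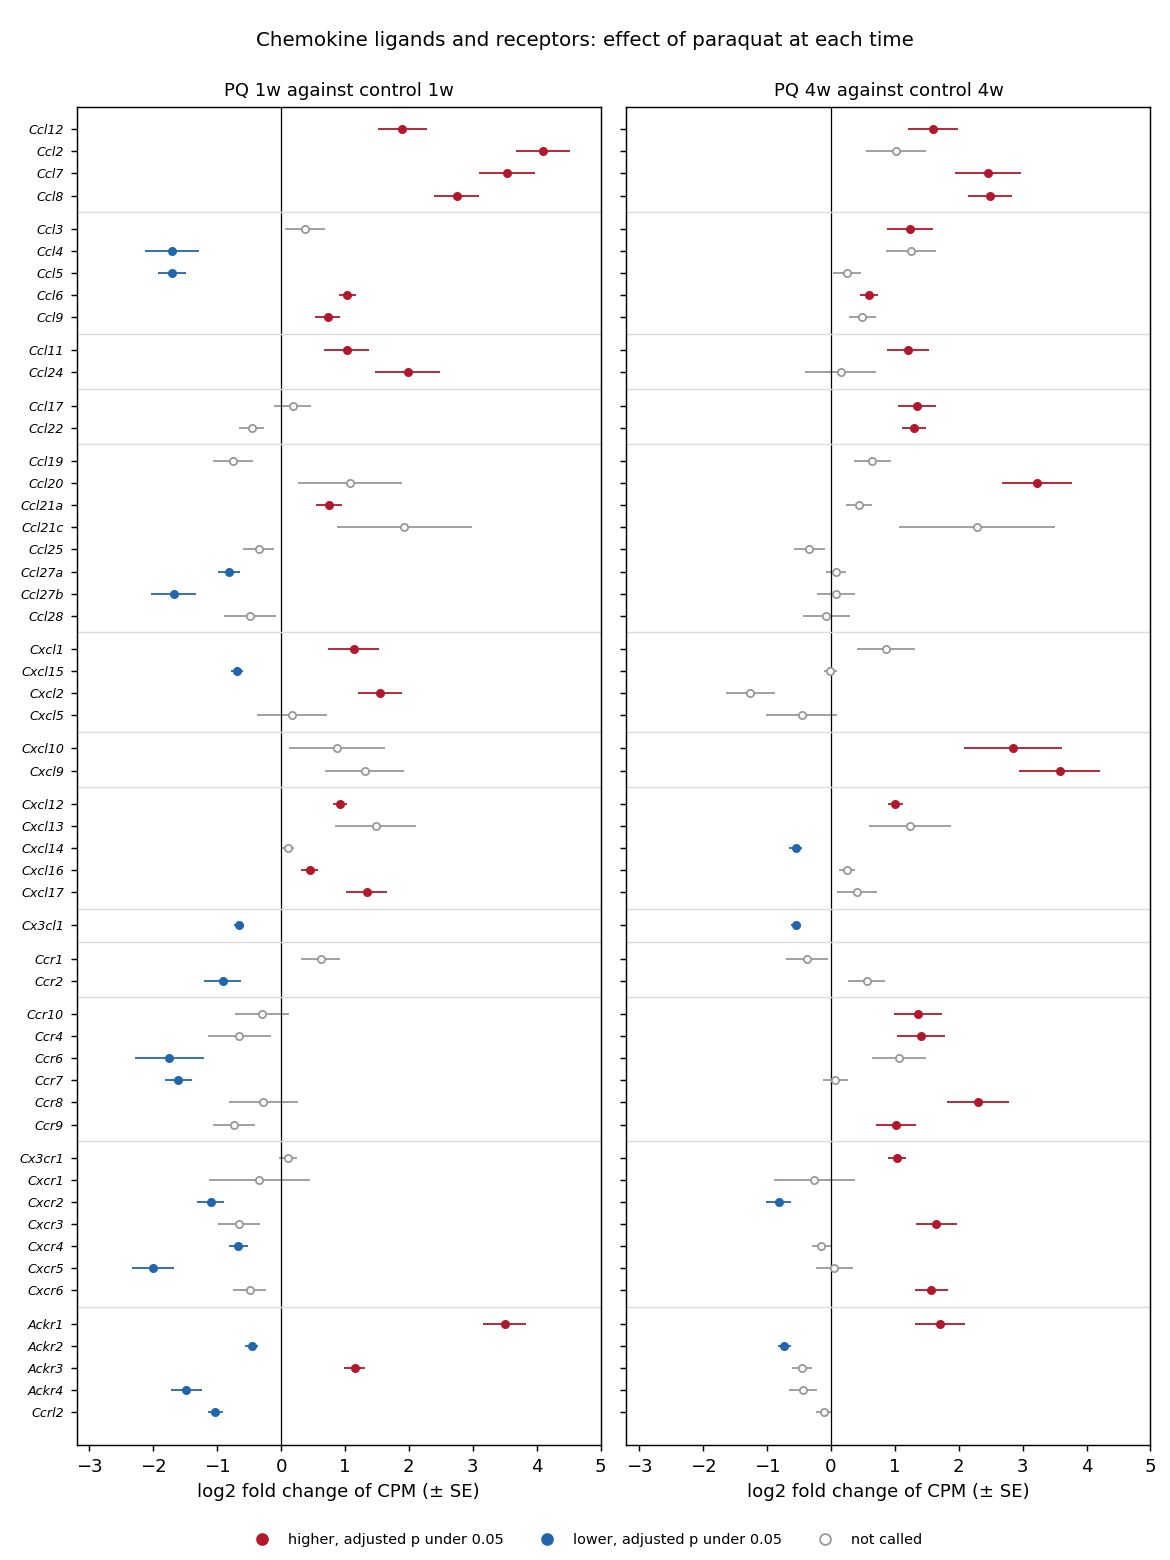
Log2 fold change of 53 of the 54 tested chemokine genes (point, with its standard error as a bar) in PQ 1w against control 1w (left) and in PQ 4w against control 4w (right), grouped by role, with ligands above and receptors below. Filled red points are higher and filled blue points lower at an adjusted p under 0.05: 16 and 15 of the genes drawn on the left, 20 and 4 on the right.

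Library totals were 17220978 to 18559809 expected counts, and values below are CPM, counts scaled to library size with TMM factors, with n = 3 per group throughout. All 5 markers of lung (Sftpc, Ager, Nkx2-1, Scgb1a1, Cldn18) had counts in every group, with summed CPM of 15500 to 17000 in PQ 1w libraries and 39200 to 53200 in control 1w libraries. PQ 4w replicate 3 stood apart from its group: it lay at 4.92 on the second principal component, where replicates 1 and 2 lay at -42 and -40.3. Its summed B cell markers reached 254 CPM, against 116 and 92.8 CPM in PQ 4w replicates 1 and 2. Marker sums of leukocytes, endothelium, fibroblasts and epithelium moved with many results and are given beside them; their part in those results was not tested. Of the leukocyte and structural markers listed, Epx (eosinophils) was at 0 in PQ 1w; the remaining markers of these lists had counts in every group.

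The 4 monocyte-attracting CC ligands, Ccl2, Ccl7, Ccl12 and Ccl8, were the group that rose furthest at 1w by median, all 4 with adjusted p under 0.05. Ccl2, the main ligand of CCR2, had 19.0, 11.9 and 13.7 CPM in PQ 1w libraries, against 1.13, 0.398 and 1.06 CPM in control 1w libraries. Ccl7, which binds CCR1, CCR2 and CCR3, had 11.8, 6.37 and 9.98 CPM in PQ 1w and 0.905, 0.682 and 0.835 CPM in control 1w. Every PQ 1w value of these 2 genes exceeded every control 1w value. Their log2 fold changes were 4.10 ± 0.42 (SE, adjusted p = 1.01e-05) and 3.53 ± 0.44 (adjusted p = 4.48e-05), in edgeR's quasi-likelihood test. Ccl12, a mouse ligand of CCR2, had 4.89, 2.67 and 3.82 CPM in PQ 1w and 0.735, 0.796 and 1.5 CPM in control 1w (log2 1.90 ± 0.39, adjusted p = 0.00161). Ccl8, which in mice binds CCR8, had 15.9, 11.6 and 15.5 CPM in PQ 1w and 2.83, 2.05 and 1.5 CPM in control 1w (log2 2.75 ± 0.35, adjusted p = 5.47e-05). Neither gene's groups overlapped.

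At 4w Ccl2 was no longer called, while Ccl7, Ccl8 and Ccl12 still were. Ccl2 had 0.989, 1.57 and 3.02 CPM in PQ 4w libraries and 0.578, 0.735 and 1.43 CPM in control 4w libraries, groups that overlap (log2 1.02 ± 0.47, adjusted p = 0.18). Its paraquat effect was 3.07 lower on the log2 scale at 4w than at 1w, and that difference was itself called (log2 -3.07 ± 0.65, adjusted p = 0.00414). Ccl8 was still high at 4w, with 6.21, 17.2 and 14.9 CPM in PQ 4w and 2.83, 1.98 and 2.0 CPM in control 4w (log2 2.49 ± 0.35, adjusted p = 0.00182). The difference between its effects at the 2 times was -0.27 ± 0.50 on the log2 scale (adjusted p = 0.716). Ccl7 had 1.32, 1.46 and 4.55 CPM in PQ 4w and 0.347, 0.452 and 0.513 CPM in control 4w, with no overlap (log2 2.46 ± 0.52, adjusted p = 0.0117; 2.34 and 0.0579 without control 4w replicate 1, 1.65 and 0.0151 without PQ 4w replicate 3). Ccl12 had 1.81, 2.64 and 4.77 CPM in PQ 4w and 1.10, 0.848 and 1.08 CPM in control 4w, also with no overlap (log2 1.6 ± 0.39, adjusted p = 0.0217). The Ccl12 call at 4w was lost without any 1 of the 3 control 4w libraries and without PQ 4w replicate 3, with adjusted p of 0.0564 to 0.0757. Between the 2 times the effect differed by -1.06 ± 0.74 for Ccl7 and -0.30 ± 0.56 for Ccl12 on the log2 scale, neither called (adjusted p = 0.293 and 0.721). For Ccl7 that difference was called without PQ 4w replicate 3 (log2 -1.89, adjusted p = 0.012).

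Ccl2, Ccl7, Ccl12 and Ccl8 lie together with Ccl11 and Ccl1 on mouse chromosome 11 (chr11:82035577-82179812, GRCm38.p6). All 5 tested genes of this cluster rose at 1w, and 4 of the 5 rose at 4w. Of all tested genes 25.9% were called higher at 1w and 5.75% at 4w. Not every cluster moved together. In that of Ccl5, Ccl9, Ccl6, Ccl3 and Ccl4 on the same chromosome, 2 of 5 rose and 2 fell at 1w. Ccl11, eotaxin, an eosinophil attractant, had 3.41, 6.70 and 3.76 CPM in PQ 1w and 2.43, 2.90 and 1.45 CPM in control 1w (log2 1.03 ± 0.35, adjusted p = 0.0286). It had 9.78, 10.6 and 4.99 CPM in PQ 4w and 3.01, 3.90 and 4.05 CPM in control 4w (log2 1.21 ± 0.33, adjusted p = 0.0336). Neither Ccl11 comparison held through every left-out library. At 1w it was lost without control 1w replicate 1, control 1w replicate 3 or PQ 1w replicate 2 (adjusted p 0.0577, 0.108 and 0.147), and at 4w without any library but PQ 4w replicate 3 (adjusted p 0.0668 to 0.126). Ccl24, another eosinophil attractant, lies elsewhere and had 2.80, 1.47 and 1.14 CPM in PQ 1w and 0.509, 0.568 and 0.278 CPM in control 1w (log2 1.98 ± 0.51, adjusted p = 0.00638). Its 4w effect was 0.15 ± 0.56 (adjusted p = 0.895). The summed markers of eosinophils and mast cells were 1.85 to 1.96 CPM in PQ 1w and 4.38 to 4.47 CPM in control 1w, with 3 of 5 tested markers lower. At 4w they were 4.61 to 5.76 CPM in PQ and 3.25 to 5.09 CPM in control, with 1 of 5 tested markers higher. It was Prg2, an eosinophil granule protein, with 3.19, 2.36 and 3.29 CPM in PQ 4w and 0.289, 0.226 and 0.171 CPM in control 4w. The means of Cpa3, Mcpt4, Cma1 and Ms4a2 lay the other way, uncalled. They were 0.681, 0.204, 0.887 and 0.443 CPM in PQ 4w and 0.951, 0.74, 1.39 and 0.724 CPM in control 4w. Epx had 1 count over each of these groups.

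**Figure D2:**
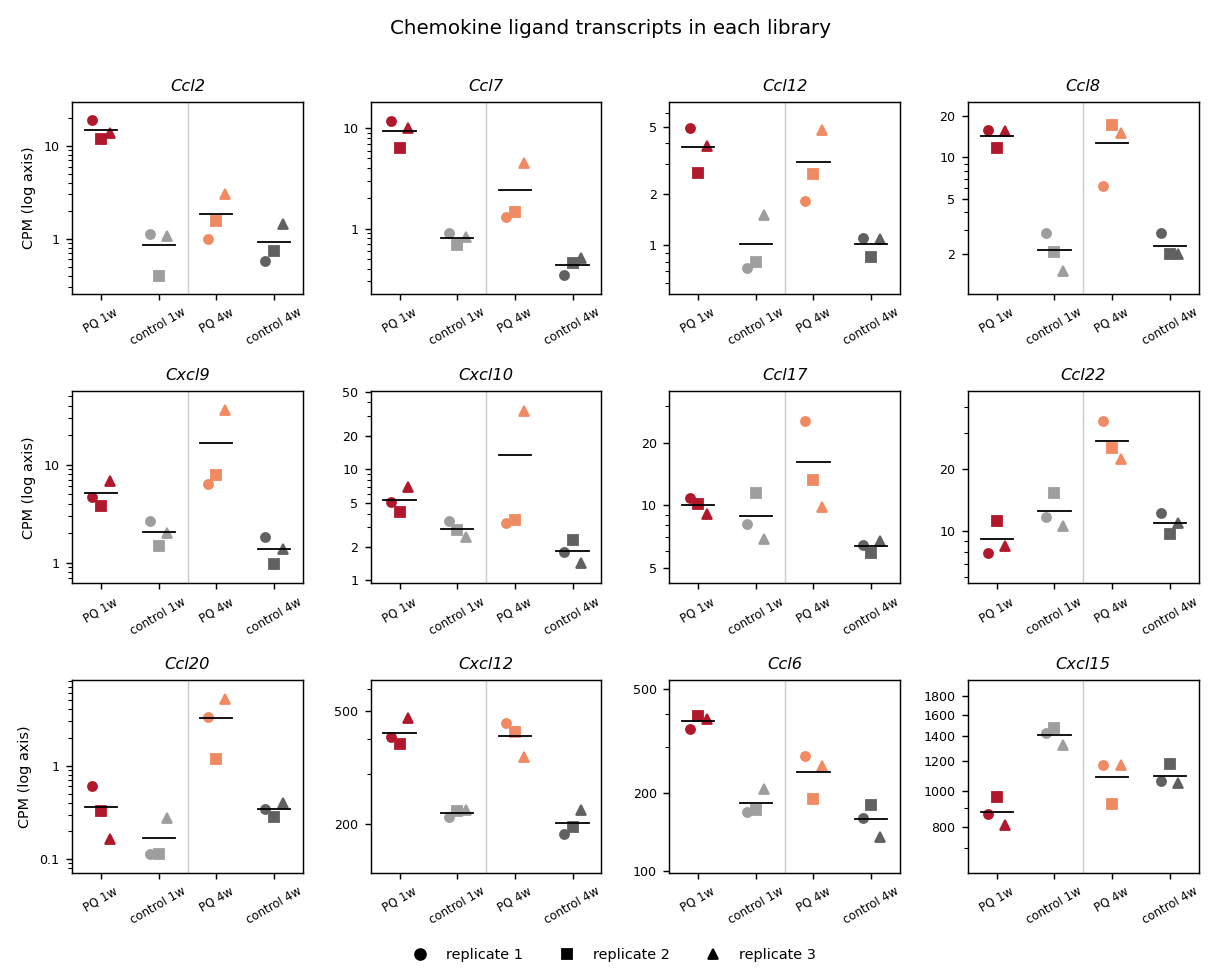
CPM of 12 ligand genes in every library on a log axis, with PQ left of control at each time; symbols mark the replicate number and the bar the group mean. Ccl2 in PQ 1w lies at 11.9 to 19.0 CPM, above the control 1w values of 0.398 to 1.13 CPM, and Cxcl9 and Cxcl10 are highest in PQ 4w replicate 3, at 36.1 and 33.3 CPM.

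Ccr1, Ccr2 and Ccr8, receptors of these ligands, were not called higher at 1w. Ccr2, the receptor that inflammatory monocytes use to leave the blood, had 33.9, 38.7 and 42.7 CPM in PQ 1w and 82.0, 34.1 and 101 CPM in control 1w. The groups overlap, since control 1w replicate 2 lay among the PQ values (log2 -0.91 ± 0.29, adjusted p = 0.0201). This call was lost without control 1w replicate 1 (adjusted p = 0.0664), control 1w replicate 3 (log2 -0.60, 0.107), PQ 1w replicate 1 (0.0697) or PQ 1w replicate 2 (0.0508). At 4w Ccr2 had 50.6, 47.2 and 46.4 CPM in PQ and 32.8, 39.3 and 25.9 CPM in control, with no overlap and no call (log2 0.56 ± 0.29, adjusted p = 0.239). Ccr1, on monocytes and neutrophils, had 29.3, 26.2 and 25.7 CPM in PQ 1w and 19.3, 9.15 and 24.3 CPM in control 1w, with no overlap and no call (log2 0.62 ± 0.31, adjusted p = 0.114; 0.92 and 0.0397 without control 1w replicate 3), and at 4w its effect was -0.37 ± 0.33 (adjusted p = 0.506). Over the same libraries 4 of 8 markers of monocytes and macrophages were higher at 1w, with sums of 524 to 571 CPM in PQ and 290 to 411 CPM in control. For alveolar macrophage markers the sums at 1w were 1490 to 2020 CPM in PQ and 568 to 618 CPM in control, with 4 of 8 higher and 2 lower. Chil3 made up most of the PQ 1w sums, with means of 1300 CPM in PQ 1w and 296 CPM in control 1w.

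The inflammatory CC ligands Ccl3, Ccl4, Ccl5, Ccl6 and Ccl9 did not move together at 1w, where 2 fell and 2 rose. Ccl5, made by T and NK cells among others, had 20.4, 21.3 and 21.4 CPM in PQ 1w and 68.6, 81.5 and 56.2 CPM in control 1w (log2 -1.71 ± 0.22, adjusted p = 6.66e-05). Ccl4 had 0.385, 0.436 and 0.436 CPM in PQ 1w and 1.36, 1.14 and 1.67 CPM in control 1w (log2 -1.71 ± 0.42, adjusted p = 0.00541). Both fell with no overlap, beside 6 of 6 NK cell markers, which summed to 11.5 to 15.7 CPM in PQ 1w and 87.3 to 94.9 CPM in control 1w. Ccl6 and Ccl9, ligands of mouse CCR1, rose instead. Ccl6 had 350, 394 and 383 CPM in PQ 1w and 168, 172 and 207 CPM in control 1w, a log2 change of 1.04 ± 0.14 (adjusted p = 7.99e-05). Ccl9 changed by 0.73 ± 0.20 (adjusted p = 0.00988).

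At 4w no CC ligand of this group was called lower. Ccl5 had 31.1, 29.9 and 51.5 CPM in PQ 4w and 40.9, 28.7 and 24.8 CPM in control 4w, groups that overlap (log2 0.25 ± 0.22, adjusted p = 0.498). Ccl4 had 1.04, 1.35 and 2.52 CPM in PQ 4w and 0.810, 0.904 and 0.342 CPM in control 4w, with no overlap and no call (log2 1.25 ± 0.39, adjusted p = 0.0573; 1.49 and 0.0454 without PQ 4w replicate 1). Ccl3, a ligand of CCR1, had 1.43, 1.12 and 1.26 CPM in PQ 4w and 0.463, 0.565 and 0.570 CPM in control 4w (log2 1.24 ± 0.36, adjusted p = 0.0411). The Ccl3 call was lost without any 1 of the 6 libraries (adjusted p 0.0538 to 0.141), and the RefSeq spans of Ccl3 and Ccl4 overlap, so reads may be shared between them. At 1w the Ccl3 groups overlapped, with 2.20, 1.2 and 1.31 CPM in PQ and 0.735, 1.59 and 1.28 CPM in control. Ccl6 rose again at 4w, with 277, 189 and 253 CPM in PQ and 159, 179 and 135 CPM in control (log2 0.60 ± 0.14, adjusted p = 0.0172), a call lost without control 4w replicate 1, control 4w replicate 3 or PQ 4w replicate 1 (adjusted p 0.0605, 0.0601 and 0.0665). Ccl9 was not called at 4w (log2 0.49 ± 0.21, adjusted p = 0.143).

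The interferon-induced CXC ligands Cxcl9 and Cxcl10 rose at 4w, by amounts that rest on PQ 4w replicate 3. Cxcl9, which draws activated T and NK cells through CXCR3, had 6.37, 7.82 and 36.1 CPM in PQ 4w and 1.85, 0.961 and 1.37 CPM in control 4w. Cxcl10, which binds the same receptor, had 3.30, 3.49 and 33.3 CPM in PQ 4w and 1.79, 2.32 and 1.43 CPM in control 4w. No values overlapped, and PQ 4w replicate 3 was far above replicates 1 and 2 for both. Log2 fold changes were 3.58 ± 0.63 for Cxcl9 (adjusted p = 0.0048) and 2.85 ± 0.77 for Cxcl10 (adjusted p = 0.0327). Without PQ 4w replicate 3 they were 2.34 (adjusted p = 0.000895) and 0.87 (adjusted p = 0.0512). The Cxcl10 call was also lost without each control 4w library (adjusted p 0.079 to 0.114).

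At 1w neither passed: Cxcl9 had 4.73, 3.81 and 6.76 CPM in PQ 1w and 2.66, 1.48 and 2.0 CPM in control 1w (log2 1.31 ± 0.62, adjusted p = 0.0973), with no overlap. Cxcl10 had 5.06, 4.09 and 6.87 CPM in PQ 1w and 3.45, 2.84 and 2.45 CPM in control 1w (log2 0.87 ± 0.75, adjusted p = 0.359), also with no overlap. Both were called at 1w when the spread was estimated from the 1w libraries alone, without the PQ 4w libraries (adjusted p = 0.00291 for Cxcl9 and 0.00971 for Cxcl10). The differences between the effects at the 2 times, 2.27 ± 0.89 for Cxcl9 and 1.98 ± 1.07 for Cxcl10, were not called (adjusted p = 0.0698 and 0.18).

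Their receptor Cxcr3, on activated T and NK cells, had 12.7, 5.51 and 15.1 CPM in PQ 4w and 4.40, 3.62 and 2.62 CPM in control 4w, with no overlap (log2 1.65 ± 0.32, adjusted p = 0.00835). At 1w it had 3.57, 3.27 and 4.96 CPM in PQ and 6.11, 7.05 and 5.51 CPM in control (log2 -0.66 ± 0.33, adjusted p = 0.113; 0.0167 with the 1w libraries alone). The change of the effect between the times was called (log2 2.31 ± 0.46, adjusted p = 0.00282). T cell markers summed to 37.3 to 42.1 CPM in PQ 1w and 84 to 106 CPM in control 1w, with 7 of 7 lower. At 4w they summed to 64.7 to 134 CPM in PQ and 60.1 to 73.3 CPM in control, ranges that overlap, with 3 of 7 higher. NK cell markers summed to 42.3 to 56.4 CPM in PQ 4w and 37.8 to 61.4 CPM in control 4w, with 0 of 6 called.

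Cxcr6, on tissue T cells, NK cells and innate lymphoid cells, had 16.2, 10.6 and 12.8 CPM in PQ 4w and 5.26, 4.35 and 3.71 CPM in control 4w (log2 1.57 ± 0.26, adjusted p = 0.0037). At 1w it was not called, with 3.41, 4.96 and 5.72 CPM in PQ and 9.05, 6.08 and 4.68 CPM in control, groups that overlap. Cxcl16, its membrane-bound ligand, rose at 1w, with 110, 128 and 123 CPM in PQ and 84.3, 98.8 and 81.4 CPM in control (log2 0.45 ± 0.13, adjusted p = 0.012). At 4w it had 75.1, 86.8 and 110 CPM in PQ and 84.2, 73.3 and 70.9 CPM in control (log2 0.25 ± 0.13, adjusted p = 0.226). The ligand was called at the earlier time and the receptor at the later one. For Cxcl16 the difference between the effects at the 2 times was not called (log2 -0.19 ± 0.18, adjusted p = 0.441). For Cxcr6 it was called (log2 2.06 ± 0.37, adjusted p = 0.00155).

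The CCR4 pair moved at 4w. Ccl22, made by macrophages and dendritic cells, had 34.0, 25.2 and 22.3 CPM in PQ 4w and 12.3, 9.72 and 11 CPM in control 4w (log2 1.3 ± 0.19, adjusted p = 0.00205). Ccl17, another ligand of CCR4, had 25.4, 13.3 and 9.77 CPM in PQ 4w and 6.42, 5.88 and 6.73 CPM in control 4w (log2 1.35 ± 0.30, adjusted p = 0.0139). Ccr4, on T helper 2 and regulatory T cells, had 1.81, 1.18 and 1.76 CPM in PQ 4w and 0.925, 0.339 and 0.513 CPM in control 4w (log2 1.41 ± 0.38, adjusted p = 0.0325). None of the 3 overlapped between groups, and none was called at 1w, where the effects were -0.46 ± 0.20, 0.18 ± 0.29 and -0.65 ± 0.49. Ccl22 was called lower at 1w without control 1w replicate 3 (log2 -0.57, adjusted p = 0.0483) or PQ 1w replicate 2 (log2 -0.62, adjusted p = 0.0321). The Ccl17 call at 4w was lost without control 4w replicate 1 or replicate 2 (adjusted p 0.0556 and 0.0503). The Ccr4 call was lost without control 4w replicate 2, control 4w replicate 3, PQ 4w replicate 1 or PQ 4w replicate 3 (adjusted p 0.113, 0.0924, 0.104 and 0.0564).

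Ccr8, the receptor of Ccl1 and of mouse Ccl8, had 0.824, 0.844 and 0.658 CPM in PQ 4w and 0.116, 0.0565 and 0.285 CPM in control 4w. That is 42 counts over the PQ 4w libraries and 8 over the control 4w libraries, with no overlap (log2 2.30 ± 0.48, adjusted p = 0.011; 2.15 and 0.0547 without control 4w replicate 1, 3.09 and 0.01 without control 4w replicate 3). At 1w its groups overlapped, with 0.220, 0.272 and 0.109 CPM in PQ and 0.283, 0.171 and 0.278 CPM in control. Dendritic cell markers summed to 114 to 143 CPM in PQ 4w and 86.4 to 91.7 CPM in control 4w, with 4 of 7 higher. At 1w they summed to 44 to 47.1 CPM in PQ and 89.4 to 90.8 CPM in control, with 7 of 7 lower.

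Ccl20, a ligand of CCR6 made by epithelium, had 3.35, 1.18 and 5.21 CPM in PQ 4w and 0.347, 0.283 and 0.399 CPM in control 4w. The groups were apart (log2 3.22 ± 0.55, adjusted p = 0.00434), on 177 and 18 counts. At 1w it had 0.605, 0.327 and 0.164 CPM in PQ and 0.113, 0.114 and 0.278 CPM in control, on 20 and 9 counts (log2 1.08 ± 0.81, adjusted p = 0.29). The difference between the Ccl20 effects at the 2 times was not called (log2 2.14 ± 1.08, adjusted p = 0.149). Ccr6, on B cells, dendritic cells and T helper 17 cells, had 0.385, 0.545 and 0.382 CPM in PQ 1w and 1.92, 0.853 and 1.67 CPM in control 1w. It fell there (log2 -1.75 ± 0.54, adjusted p = 0.0172), a call lost without control 1w replicate 1, PQ 1w replicate 1 or PQ 1w replicate 3 (adjusted p 0.062, 0.0543 and 0.0548). At 4w it had 2.80, 1.52 and 5.98 CPM in PQ and 1.5, 1.58 and 1.83 CPM in control, groups that overlap (log2 1.07 ± 0.42, adjusted p = 0.122; 1.43 and 0.0252 without PQ 4w replicate 2).

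The receptors that guide lymphocytes and dendritic cells to lymphoid tissue fell at 1w. Cxcr5, the B cell follicle receptor, had 2.25, 2.45 and 2.83 CPM in PQ 1w and 9.67, 9.83 and 10.7 CPM in control 1w (log2 -2.0 ± 0.33, adjusted p = 0.00034). Ccr7, which brings dendritic cells and naive T cells to lymph nodes, had 4.56, 7.03 and 7.09 CPM in PQ 1w and 16.1, 20.7 and 20.3 CPM in control 1w (log2 -1.61 ± 0.21, adjusted p = 7.13e-05). Both were far below control in every library. B cell markers summed to 22.6 to 25.7 CPM in PQ 1w and 112 to 123 CPM in control 1w, with 6 of 6 lower.

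At 4w neither receptor was called. Ccr7 had 22.3, 16.1 and 27.4 CPM in PQ 4w and 18.8, 19.8 and 24.1 CPM in control 4w (log2 0.07 ± 0.20, adjusted p = 0.86). Cxcr5 had 7.53, 7.14 and 18.8 CPM in PQ 4w and 9.66, 11.8 and 11 CPM in control 4w (log2 0.05 ± 0.29, adjusted p = 0.937). Replicate 3 lay above the controls and replicates 1 and 2 below them, and without PQ 4w replicate 3 Cxcr5 was lower (log2 -0.56, adjusted p = 0.0196). B cell markers did likewise, with sums of 116, 92.8 and 254 CPM in PQ 4w replicates 1, 2 and 3 and 160 to 166 CPM in control 4w. Cxcl13, the ligand of CXCR5, was called at neither time: it had 16.4, 6.75 and 14.2 CPM in PQ 1w and 7.81, 3.13 and 2.45 CPM in control 1w, and 5.06, 4.72 and 20.8 CPM in PQ 4w and 3.01, 7.29 and 2.62 CPM in control 4w. At 1w it passed without control 1w replicate 1 (log2 2.16, adjusted p = 0.0324), without PQ 1w replicate 2 (log2 1.78, adjusted p = 0.0494) or with the 1w libraries alone (adjusted p = 0.0143). Of the CCR7 ligands, Ccl21a, made by lymphatic endothelium, rose at 1w (log2 0.75 ± 0.21, adjusted p = 0.0105; 0.54 and 0.0541 without PQ 1w replicate 2), and Ccl19 was not called at either time (log2 -0.75 ± 0.31 at 1w, which passed with the 1w libraries alone at adjusted p = 0.0145, and 0.65 ± 0.29 at 4w). The paraquat effect on Ccl19 nevertheless differed between the times (log2 1.4 ± 0.42, adjusted p = 0.025), a call lost without control 1w replicate 2, control 4w replicate 1 or 3, or PQ 1w replicate 1 or 2 (adjusted p 0.053 to 0.061). Lymphatic endothelial markers summed to 664 to 838 CPM in PQ 1w and 798 to 843 CPM in control 1w, with 3 of 5 higher. Lyve1 was the largest part of these sums, with means of 349 CPM in PQ 1w and 542 CPM in control 1w.

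The remaining lymphoid and mucosal CC genes gave smaller or less certain results. Ccl27a and Ccl27b, copies of a skin-associated ligand of CCR10, fell at 1w (log2 -0.81 ± 0.17 and -1.68 ± 0.35, adjusted p = 0.00175 and 0.00183) and had effects of 0.08 each at 4w. Ccl21a and Ccl21c, like Ccl27a and Ccl27b, have near-identical copies among which reads can be split, so their levels are uncertain. Ccl21c had 0 counts in 4 of the 12 libraries and was not called at either time, although it passed at 1w without control 1w replicate 1 (adjusted p = 0.00597). Ccr10, on plasma cells and some T cells, had 2.53, 1.63 and 1.15 CPM in PQ 4w and 0.868, 0.509 and 0.685 CPM in control 4w (log2 1.36 ± 0.37, adjusted p = 0.0327). It lost its call without any control 4w library or PQ 4w replicate 1 (adjusted p 0.0647 to 0.142). Ccr9, a receptor of gut-homing T cells, rose at 4w (log2 1.02 ± 0.31, adjusted p = 0.0494), with the call lost without control 4w replicate 1, control 4w replicate 3, PQ 4w replicate 1 or PQ 4w replicate 3 (adjusted p 0.0831 to 0.165). At 1w Ccr9 was lower without control 1w replicate 1 (log2 -0.93, adjusted p = 0.0475). Ccl25, its ligand, and Ccl28, a mucosal ligand of CCR10, were called at neither time, with log2 fold changes between -0.49 and -0.07.

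**Figure D3:**
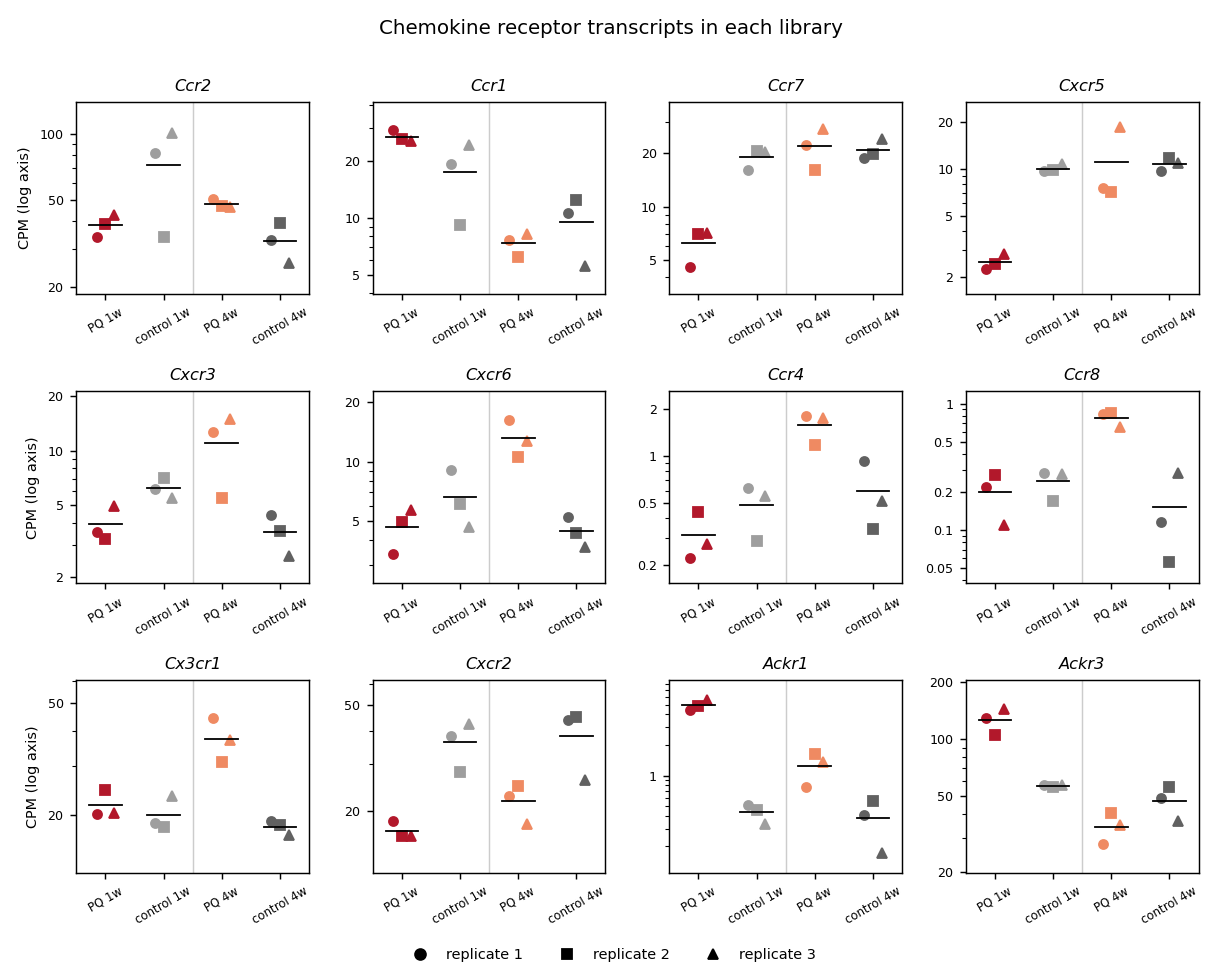
CPM of 12 receptor genes in every library on a log axis, with PQ left of control at each time; symbols mark the replicate number and the bar the group mean. Ccr7 and Cxcr5 lie below their controls in PQ 1w, at 4.56 to 7.09 and 2.25 to 2.83 CPM, while Cxcr3, Cxcr6, Ccr4, Ccr8 and Cx3cr1 lie above theirs in PQ 4w.

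Among CXC ligands of neutrophils, Cxcl1 and Cxcl2 rose at 1w on few counts. Cxcl2 had 0.660, 0.708 and 0.654 CPM in PQ 1w and 0.283, 0.227 and 0.167 CPM in control 1w, on 37 and 12 counts (log2 1.55 ± 0.35, adjusted p = 0.00331). In PQ 4w it had 0.165, 0.281 and 0.165 CPM, against 0.578, 0.509 and 0.399 CPM in control 4w. Those groups were apart in the other direction without a call (log2 -1.26 ± 0.38, adjusted p = 0.0654), and the difference between the 2 effects was called (log2 -2.81 ± 0.52, adjusted p = 0.00185). Cxcl1 had 1.10, 1.09 and 1.2 CPM in PQ 1w and 0.792, 0.284 and 0.445 CPM in control 1w (log2 1.14 ± 0.40, adjusted p = 0.0316). Its call was lost without any library of that comparison but control 1w replicate 1 (adjusted p 0.0595 to 0.112). Cxcl5 was called at neither time (log2 0.17 ± 0.55 at 1w and -0.46 ± 0.55 at 4w).

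Cxcr2, the neutrophil receptor for these ligands, fell at both times. It had 18.4, 16.1 and 16.2 CPM in PQ 1w and 38.2, 28.1 and 42.6 CPM in control 1w (log2 -1.10 ± 0.21, adjusted p = 0.00089). It had 22.8, 24.9 and 17.9 CPM in PQ 4w and 43.9, 45.3 and 26.2 CPM in control 4w, again with no overlap (log2 -0.82 ± 0.20, adjusted p = 0.0233). The 4w call was lost without control 4w replicate 1, control 4w replicate 2, PQ 4w replicate 1 or PQ 4w replicate 3 (adjusted p 0.102, 0.0867, 0.0587 and 0.0519). Neutrophil markers summed to 91.6 to 161 CPM in PQ 1w and 152 to 374 CPM in control 1w, with 2 of 8 lower, and to 65.2 to 115 CPM in PQ 4w and 107 to 517 CPM in control 4w, with 6 of 8 lower. Cxcr1, the other neutrophil receptor, was called at neither time.

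Upstream sequences are shown for Cxcl1, Cxcl2 and Cxcl3, neighbouring ligands of CXCR2, and for Cxcl10, the interferon-induced ligand with the lone high library. They were chosen after the values were seen. The NF-kappaB motif GGGANNTTCC, the interferon-response motif GAAANNGAAA, the STAT motif TTCNNNGAA and the TATA motif TATAAA were searched on both strands, from 250 bases before to 50 after the start of each gene, for the 44 of 59 genes with an entry. The NF-kappaB motif was found in 6 of the 44 (13.6%) and in 1.63% of all 27025 genes with an entry; the 6 were Ccl1, Ccr3, Cxcl1, Cxcl2, Cxcl3 and Cxcl10. For the interferon-response motif the shares were 6.82% and 3.99%, for STAT 9.09% and 9.55%, and for TATA 31.8% and 15.7%. Below are the 250 bases before each start (RefSeq, GRCm38.p6), 5′ to 3′ on the strand of the gene, with the NF-kappaB and interferon-response motifs in capitals.
Cxcl1, chr5:90890995-90891244, plus strand: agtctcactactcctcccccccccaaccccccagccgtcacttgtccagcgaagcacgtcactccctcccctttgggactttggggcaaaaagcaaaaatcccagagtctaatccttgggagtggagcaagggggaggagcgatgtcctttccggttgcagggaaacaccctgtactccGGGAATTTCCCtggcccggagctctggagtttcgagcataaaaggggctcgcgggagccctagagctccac
Cxcl2, chr5:90903649-90903898, plus strand: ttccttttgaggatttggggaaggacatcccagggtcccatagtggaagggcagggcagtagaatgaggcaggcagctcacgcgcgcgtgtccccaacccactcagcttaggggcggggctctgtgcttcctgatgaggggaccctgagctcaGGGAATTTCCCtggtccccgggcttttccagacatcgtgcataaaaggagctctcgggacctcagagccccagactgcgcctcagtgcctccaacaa
Cxcl3, chr5:90785851-90786100, plus strand: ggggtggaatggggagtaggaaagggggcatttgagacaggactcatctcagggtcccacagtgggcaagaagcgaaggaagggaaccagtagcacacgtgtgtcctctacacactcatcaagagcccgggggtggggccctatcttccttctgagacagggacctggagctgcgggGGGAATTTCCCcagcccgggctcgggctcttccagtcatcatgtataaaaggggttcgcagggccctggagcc
Cxcl10, chr5:92348890-92349139, minus strand: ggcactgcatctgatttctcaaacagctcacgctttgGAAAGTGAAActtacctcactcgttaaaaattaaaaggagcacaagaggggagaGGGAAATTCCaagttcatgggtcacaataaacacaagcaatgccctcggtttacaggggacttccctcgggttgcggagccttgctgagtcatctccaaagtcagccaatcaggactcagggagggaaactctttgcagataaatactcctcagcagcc

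In Cxcl1, Cxcl2 and Cxcl3 the capitals hold the NF-kappaB motif on both strands, 2 overlapping matches that begin 71, 97 and 73 bases upstream of the start. Cxcl10 held 1 NF-kappaB match, 159 bases upstream, and 1 interferon-response match, 213 bases upstream, and these did not overlap. A match is a description of the letters and not of binding. Cxcl3 was below the filter for testing, with 26 counts over PQ 1w and 9 over control 1w, a ratio of 2.82 scaled to depth (95% interval 1.28 to 6.85, counting error only). At 4w it had 30 and 10 counts, a ratio of 3.05 (1.45 to 7).

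Cxcl15, lungkine, is a mouse CXC ligand made by lung epithelium, and it was the ligand with the highest FPKM (fragments scaled to transcript length and depth) in every group. Its FPKM was 409 ± 36.4 in PQ 1w and 653 ± 33.0 in control 1w (SD), and 531 ± 78.0 in PQ 4w and 509 ± 41.5 in control 4w. In CPM it had 866, 964 and 806 in PQ 1w and 1430, 1480 and 1330 in control 1w, a fall with no overlap (log2 -0.69 ± 0.10, adjusted p = 0.000172). At 4w the groups overlapped (log2 -0.01 ± 0.10, adjusted p = 0.955). Alveolar type 2 markers summed to 15800 to 17700 CPM in PQ 1w and 26200 to 32600 CPM in control 1w, with 6 of 6 lower. Cxcl17, a mucosal ligand, rose at 1w, with 63.2, 64.0 and 59.5 CPM in PQ and 32.2, 23.6 and 17.9 CPM in control (log2 1.34 ± 0.32, adjusted p = 0.00463). At 4w it had 91.4, 88.6 and 31.4 CPM in PQ and 44.6, 59.3 and 55.2 CPM in control, where PQ 4w replicate 3 lay below all controls. It was called at 4w without that library (log2 0.76, adjusted p = 0.0135). Airway epithelial markers summed to 4240 to 5270 CPM in PQ 1w and 20200 to 28800 CPM in control 1w, with 1 of 5 lower. Scgb1a1 made up most of these sums, with means of 4010 CPM in PQ 1w and 24800 CPM in control 1w. At 4w the sums were 33600, 43600 and 20500 CPM in PQ replicates 1, 2 and 3 and 41200 to 49700 CPM in control, with 0 of 5 called.

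Cxcl12, a stromal ligand that holds leukocytes and progenitors in tissue, rose to a similar level at both times. It had 405, 383 and 471 CPM in PQ 1w and 212, 223 and 224 CPM in control 1w (log2 0.93 ± 0.11, adjusted p = 2.84e-05). It had 455, 421 and 346 CPM in PQ 4w and 184, 196 and 225 CPM in control 4w (log2 1.01 ± 0.11, adjusted p = 0.000568). The difference between the 2 effects was 0.08 ± 0.15 on the log2 scale. Its signalling receptor Cxcr4 fell at 1w, with 44.5, 41.1 and 40.4 CPM in PQ and 66.9, 65.4 and 68.8 CPM in control (log2 -0.67 ± 0.15, adjusted p = 0.00298). At 4w the groups overlapped without a call, and Cxcr4 was lower without PQ 4w replicate 3 (log2 -0.39, adjusted p = 0.0224).

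Its scavenging receptor Ackr3 went the other way, with 128, 105 and 144 CPM in PQ 1w and 57.2, 56.0 and 57.1 CPM in control 1w (log2 1.15 ± 0.16, adjusted p = 9.54e-05). In PQ 4w Ackr3 had 27.9, 40.5 and 35.2 CPM, against 48.7, 55.7 and 36.8 CPM in control 4w (log2 -0.45 ± 0.16, adjusted p = 0.0949; -0.58 and 0.0447 without control 4w replicate 3). The effects at the 2 times differed by -1.59 ± 0.23 on the log2 scale (adjusted p = 0.000398). Per length, Ackr3 led the receptors in PQ 1w at 60.4 ± 9.71 FPKM, ahead of Cxcr4 at 22.9 ± 0.954 FPKM, whereas Cxcr4 led in control 1w at 36.2 ± 1.15 FPKM with Ackr3 at 27.1 ± 0.56 FPKM. Fibroblast markers summed to 7190 to 8060 CPM in PQ 1w and 1850 to 1970 CPM in control 1w, with 3 of 5 higher and 1 lower. Col1a1 and Col1a2 made up most of these sums, with means of 4030 and 3080 CPM in PQ 1w and 635 and 674 CPM in control 1w. At 4w the fibroblast markers summed to 1610 to 1770 CPM in PQ and 1520 to 1600 CPM in control, with 0 of 5 called. Cxcl14, a stromal and epithelial ligand, was called at 4w, where it had 100, 119 and 124 CPM in PQ and 164, 187 and 152 CPM in control (log2 -0.55 ± 0.10, adjusted p = 0.00596).

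Cx3cl1 and its receptor moved apart at 4w. Cx3cl1, fractalkine, a membrane-anchored ligand of endothelium and epithelium, had 39.8, 41.9 and 36.5 CPM in PQ 1w and 62.7, 60.9 and 62.8 CPM in control 1w (log2 -0.66 ± 0.08, adjusted p = 3.62e-05). It had 41.1, 50.7 and 49.6 CPM in PQ 4w and 69.8, 67.4 and 70.3 CPM in control 4w (log2 -0.55 ± 0.08, adjusted p = 0.00189). Cx3cr1, on patrolling monocytes and macrophages, had 44.3, 30.9 and 36.9 CPM in PQ 4w and 19.0, 18.5 and 17.0 CPM in control 4w (log2 1.04 ± 0.14, adjusted p = 0.00139). At 1w it had 20.1, 24.5 and 20.3 CPM in PQ and 18.7, 18.1 and 23.4 CPM in control, groups that overlap (log2 0.11 ± 0.14, adjusted p = 0.557). The ligand's fall was called at both times and the receptor's rise at 4w. Blood endothelial markers summed to 2080 to 2670 CPM in PQ 4w and 3460 to 3780 CPM in control 4w, with 5 of 5 lower. Monocyte and macrophage markers summed to 353 to 438 CPM in PQ 4w and 249 to 281 CPM in control 4w, with 5 of 8 higher.

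All 5 atypical receptors were called at 1w, 2 higher and 3 lower, at a time when 48.8% of all tested genes were called. Ackr1, carried by venular endothelium and red cells, binds many inflammatory chemokines and had 4.40, 4.90 and 5.61 CPM in PQ 1w and 0.509, 0.455 and 0.334 CPM in control 1w. Its log2 fold change of 3.5 ± 0.34 (adjusted p = 6.03e-06) was the highest among the receptors. In PQ 4w it had 0.769, 1.63 and 1.37 CPM, against 0.405, 0.565 and 0.171 CPM in control 4w (log2 1.70 ± 0.39, adjusted p = 0.0155; 1.76 and 0.0573 without control 4w replicate 1). The groups were apart at both times, and the effect was smaller at 4w by 1.80 ± 0.55 on the log2 scale (log2 -1.80, adjusted p = 0.0259). That difference was not called without control 1w replicate 3, control 4w replicate 1 or 2, or PQ 1w replicate 3 (adjusted p 0.0519 to 0.116). Red cell markers summed to 580 to 1640 CPM in PQ 1w and 2890 to 4770 CPM in control 1w, with 5 of 6 lower, and blood endothelial markers to 2090 to 2470 CPM in PQ 1w and 3370 to 3830 CPM in control 1w, with 5 of 5 lower.

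The other atypical receptors that fell are scavengers or non-signalling receptors. Ackr2, which degrades inflammatory CC chemokines, had 52.3, 46.0 and 55.7 CPM in PQ 1w and 74.3, 65.4 and 72.0 CPM in control 1w (log2 -0.46 ± 0.10, adjusted p = 0.00183). It had 37.9, 48.1 and 42.6 CPM in PQ 4w and 75.1, 66.8 and 70.7 CPM in control 4w (log2 -0.73 ± 0.10, adjusted p = 0.00135). Groups were apart at both times. Ackr4, which removes CCR7 ligands, had 2.03, 2.40 and 1.91 CPM in PQ 1w and 6.22, 6.03 and 5.46 CPM in control 1w (log2 -1.48 ± 0.24, adjusted p = 0.000371). Ccrl2, a receptor that presents chemerin, fell at 1w to 23.1, 21.6 and 20.9 CPM in PQ, against 36.9, 48.1 and 49.3 CPM in control (log2 -1.03 ± 0.12, adjusted p = 3.26e-05). At 4w Ackr4 and Ccrl2 were not called (log2 -0.44 ± 0.22 and -0.11 ± 0.12).

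Set side by side, a receptor and a ligand of it were both called higher for 1 receptor at 1w and 3 at 4w. Of 16 receptors with listed ligands, 15 were tested. At 1w, 1 of these receptors, Ackr3, rose, and it had a ligand that also rose; 6 receptors fell, and 4 of them, Ccr2, Ccr7, Cxcr2 and Cxcr4, had at least 1 ligand that rose. At 4w, 7 receptors rose, and 3 of them, Ccr4, Ccr8 and Cxcr3, had at least 1 ligand that rose; 1 receptor, Cxcr2, fell, and no tested ligand of it rose. The difference between these counts was not tested. Of all tested genes 25.9% were called higher and 22.9% lower at 1w, and 5.75% and 6.39% at 4w. Several of the calls counted here were lost without 1 or more libraries. These were Ccr4, Ccr8, Ccr9, Ccr10, Cxcr2, Ccl17 and Cxcl10 at 4w, and Ccr2, Ccr6, Ccl21a and Cxcl1 at 1w.

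A test of the difference between the paraquat effects at the 2 times called 25 of the 54 genes, 20 with the effect higher at 4w and 5 with it lower, where 32% of all tested genes were called (14.1% higher and 17.9% lower). Of the 21 tested receptors, 13 had a higher effect at 4w and 2 a lower one; of the 33 tested ligands, 7 and 3. All 6 CC receptors of lymphocytes and dendritic cells (Ccr4, Ccr6, Ccr7, Ccr8, Ccr9, Ccr10) were among the 13. Across the times, 8 genes rose at both, among them Ackr1, Ccl6, Ccl7, Ccl8, Ccl11, Ccl12 and Cxcl12, and 3 fell at both, Ackr2, Cx3cl1 and Cxcr2. None of the 54 was called in opposite directions. Of all tested genes 25.9% were called higher at 1w and 5.75% at 4w, and 22.9% and 6.39% lower. The share of all tested genes called at both times was not computed, so nothing particular to these genes is read from these counts.

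**Figure D4:**
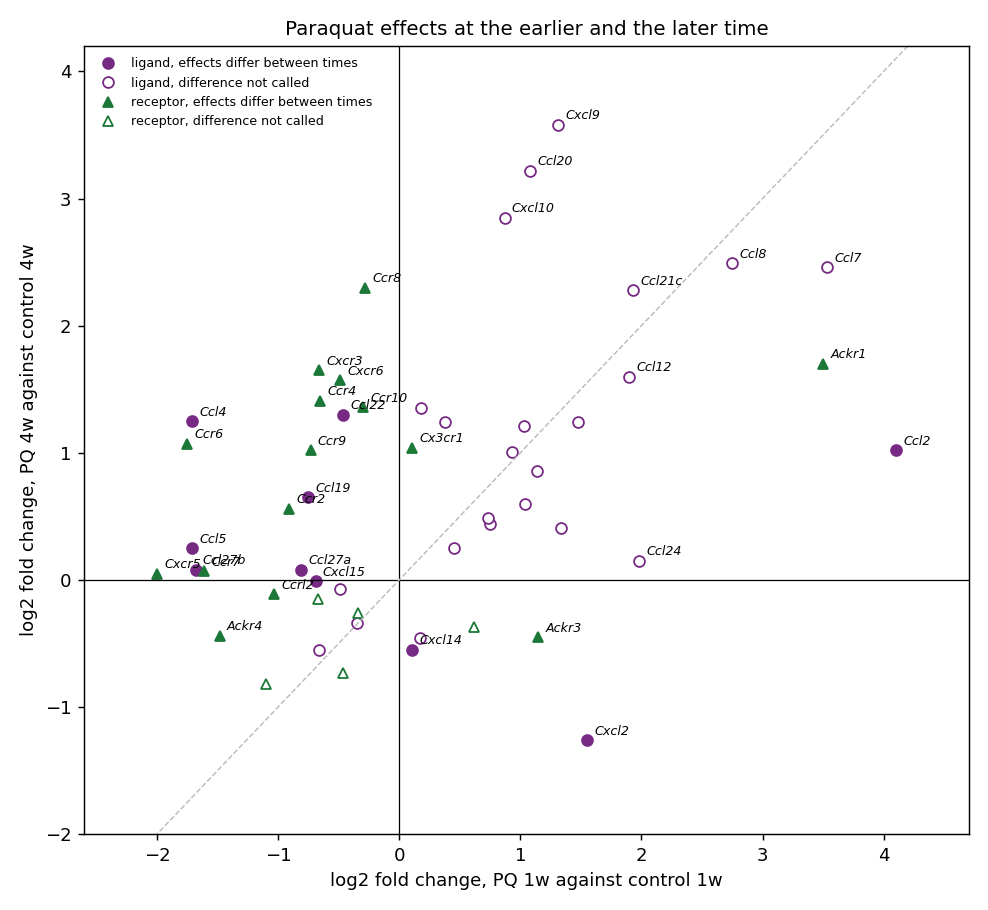
Log2 fold change at 4w (vertical axis) against that at 1w (horizontal axis) for 53 of the 54 tested genes, with ligands as circles and receptors as triangles; filled symbols mark the 25 genes whose effects differ between the times, and the dashed line marks equal effects. Most filled receptors lie above the line, and Ccl2, Cxcl2, Ackr1, Ackr3 and Cxcl14 are the filled genes below it.

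Compared directly, 36 of the 54 genes differed between PQ 4w and PQ 1w, 24 higher and 12 lower at 4w, a share of 66.7% where 54.6% of all tested genes were called (26.7% higher and 27.8% lower). With a change of at least 2-fold as well, 23 of the 54 passed here and 15.6% of all tested genes, and at 1w 21 of the 54 and 12.3%. This comparison uses libraries of the comparisons above and is given for its own values. Ccl2 was lower in PQ 4w by -2.99 ± 0.38 on the log2 scale (adjusted p = 5.04e-05), and Ackr3 by -1.86 ± 0.16 (adjusted p = 2.7e-06). Ccr6 was higher by 2.96 ± 0.50 (adjusted p = 0.000389; 2.27 without PQ 4w replicate 3) and Ccl20 by 3.13 ± 0.55 (adjusted p = 0.000463). Ccr1 was lower in PQ 4w, with 7.64, 6.24 and 8.29 CPM against 29.3, 26.2 and 25.7 CPM in PQ 1w (log2 -1.87 ± 0.32, adjusted p = 0.000454).

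The saline groups differed for 5 of the 54 genes, a share of 9.26% against 10.1% of all tested genes (5.9% higher and 4.2% lower in control 4w). Among them Ccl5, Ccr2 and Cxcl15 were lower in control 4w than in control 1w (log2 -1.13 ± 0.22, -1.14 ± 0.29 and -0.37 ± 0.10, adjusted p = 0.0193, 0.0343 and 0.0431), and Cxcl17 was higher (log2 1.11 ± 0.32, adjusted p = 0.0494). For these genes the control level at the 2 times is therefore not the same. NK cell markers summed to 37.8 to 61.4 CPM in control 4w and 87.3 to 94.9 CPM in control 1w. The count of 5 fell to between 0 and 2 without control 4w replicate 1, 2 or 3 or without control 1w replicate 1 or 3.

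Other genes of the chemokine pathway, from lists of known members, moved in both directions. Their counts stand against 48.8% of all tested genes called at 1w and 12.1% at 4w, and nothing particular to a list is read from them. Of 4 chemokine genes outside the symbol families, 1 rose and 2 fell at 1w: Pf4 (Cxcl4), a platelet chemokine, changed by 1.39 ± 0.25 on the log2 scale and Ppbp (Cxcl7), another, by -1.99 ± 0.17 (adjusted p = 0.000613 and 2.75e-06). At 4w Xcr1, the receptor of cross-presenting dendritic cells and also one of the dendritic markers, rose (log2 1.4 ± 0.14, adjusted p = 0.000346) having fallen at 1w (log2 -0.87 ± 0.16, adjusted p = 0.000733), and Ppbp fell (log2 -0.86 ± 0.15, adjusted p = 0.00531). Platelet markers summed to 13.7 to 22.8 CPM in PQ 1w and 24.4 to 26.8 CPM in control 1w, with 4 of 5 lower, and to 21.8 to 26 CPM in PQ 4w and 36.6 to 45.6 CPM in control 4w, with 3 of 5 lower. Of 10 receptors for other chemoattractants, 3 rose and 3 fell at 1w, and 3 rose and 1 fell at 4w. C3ar1, the complement C3a receptor, rose at both times (log2 2.52 ± 0.15 and 1.63 ± 0.15, adjusted p = 1.93e-07 and 0.000247). Ptafr, the platelet-activating factor receptor, also rose at both (log2 0.65 ± 0.16 at 1w and 0.95 ± 0.16 at 4w, adjusted p = 0.00457 and 0.00396). S1pr1, the receptor by which lymphocytes leave tissue, which endothelium also carries, fell at both (log2 -0.92 ± 0.10 and -0.49 ± 0.10, adjusted p = 1.34e-05 and 0.00965), with the 4w call lost without control 4w replicate 1 (adjusted p = 0.0591).

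Of 34 tested genes of chemokine receptor signalling, 4 rose and 7 fell at 1w, and 7 rose and 4 fell at 4w, a share of 32.4% at each time, below that of all tested genes at 1w and above it at 4w. The 4w calls of Arrb2, Dock2, Gnai1, Gnai2, Gnb1, Grk5 and Tiam1 were each lost without 1 or more libraries (adjusted p 0.0512 to 0.226). At 1w Rgs16, which shortens G protein signals, rose (log2 3.18 ± 0.29, adjusted p = 4.3e-06), as it did at 4w (log2 1.51 ± 0.31, adjusted p = 0.0103), and Adrbk2, a kinase that desensitizes receptors, fell (log2 -0.79 ± 0.08, adjusted p = 9.78e-06). At 4w Rgs1, a regulator of the same kind in lymphocytes, and Pik3cg, the kinase PI3K gamma of leukocytes, rose (log2 1.62 ± 0.20 and 0.99 ± 0.17, adjusted p = 0.000979 and 0.00401). Of 7 genes of the interferon-gamma pathway that induce or accompany Cxcl9 and Cxcl10, 1 rose and 5 fell at 1w, and 3 rose and 0 fell at 4w. Irf1 and Gbp4 fell at 1w (log2 -0.75 ± 0.08 and -0.87 ± 0.20), and Irf8 and Ciita rose at 4w (log2 0.72 ± 0.11 and 1.28 ± 0.23) but were lower at 1w (log2 -0.38 ± 0.11 and -0.65 ± 0.24). The 1w call of Irf8 was lost without control 1w replicate 3 or PQ 1w replicate 3 (adjusted p 0.0688 and 0.0531). That of Ciita was lost without control 1w replicate 1 or 3 or PQ 1w replicate 1 or 2 (adjusted p 0.0854 to 0.123). Gbp2 also rose at 4w (log2 0.64, adjusted p = 0.0423), a call lost without any library but PQ 4w replicate 2 (adjusted p 0.0566 to 0.124). Its value was 0.31 without PQ 4w replicate 3. Of 16 tested NF-kappaB pathway genes and targets, 5 rose and 5 fell at 1w, and 1 rose (Tnfaip3, log2 0.61 ± 0.12) and 1 fell (Rela, log2 -0.25 ± 0.07) at 4w. The Rela call at 4w was lost without any library but PQ 4w replicate 3 (adjusted p 0.0824 to 0.181), and Rela fell by the same amount at 1w. At 1w Sele, E-selectin, fell (log2 -2.06 ± 0.31) and Il33, an epithelial alarmin, rose (log2 0.66 ± 0.13). Of 4 tested genes tied to type 2 responses, 3 rose and 1 fell at 1w. Arg1 (log2 5.26 ± 0.40) and Chil3 (log2 2.14 ± 0.18) had the smallest p there. Retnla also rose at 1w, with 603, 458 and 459 CPM in PQ 1w and 45.1, 35.2 and 25.4 CPM in control 1w. At 4w 2 were called higher, Arg1 (log2 2.08 ± 0.42) and Retnla (log2 3.05 ± 0.80, adjusted p = 0.0296). Chil3 is also one of the alveolar macrophage markers. Retnla had 352, 825 and 22.5 CPM in PQ 4w and 44.9, 39.6 and 60.5 CPM in control 4w, so PQ 4w replicate 3 lay below every control. Its 4w call was lost without any library but that one (adjusted p 0.0566 to 0.111), and its value was 1.96 without PQ 4w replicate 2.

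The 5 genes below the filter for testing were Ccl1, Ccr1l1, Ccr3, Cxcl3 and Cxcl11. Ccl1, a ligand of CCR8, had 15 counts over the PQ 1w libraries and 0 over control 1w. With control set to a floor of 3 counts summed over its libraries, the ratio scaled to depth was 4.89. At 4w Ccl1 had 10 counts over PQ and 0 over control, a ratio of 3.39 with the same floor. PQ 4w replicate 2 was at 0 as well, so the 4w groups overlap. Ccr3, the eosinophil receptor, had 17 counts over PQ 4w and 0 over control 4w, a ratio of 5.77 with the same floor. At 1w it had 7 and 8 counts. Cxcl11, another ligand of CXCR3, had 17 and 15 counts at 1w and 18 and 9 at 4w, ratios of 1.11 (95% interval 0.52 to 2.38) and 2.04 (0.869 to 5.15). Ccr1l1, a receptor gene next to Ccr1, had 8 and 2 counts at 1w and 3 and 3 at 4w. The intervals cover counting error only. The ratios to a floor take the PQ count as exact and are not lower bounds.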

How the data were processed

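Lung RNA was taken from homogenized tissue with an RNA integrity number above 7.0 and a 28S/18S ratio above 1.0 and run on a BGISEQ 500 sequencer, per the labels' protocols. HISAT, RSEM 1.2.12 and mm10 are named in the submitters' processing notes; no source used here gives the HISAT version, the strandedness or the annotation, so reads from overlapping or antisense genes cannot be told apart. The expected counts per gene were deposited unscaled, and the FPKM values (scaled to transcript length and depth) were computed by the authors, per the file headers.

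The 12 tables were joined by gene ID, a gene not listed in a table was taken as 0 there, and 27 symbols turned into dates by a spreadsheet were restored. Of the listed expected counts 69.7% were whole, and all were rounded. The main test was edgeR 4.0.16's quasi-likelihood F-test (R 4.3.3) on all 12 libraries with 4 group means, TMM scaling (factors 0.974 to 1.06) and filterByExpr (minimum count 10, minimum total 15). Benjamini-Hochberg adjustment ran over 15921 genes. The standard error of a log2 fold change is the effect divided by the square root of F. The code was tested on simulated counts. Limma 3.58.1 on log2(FPKM + 0.1) and log2(FPKM + 1), DESeq2 1.42.0, other scalings, no filter, the libraries of a comparison alone, a replicate block, stricter thresholds and each left-out library were alternatives. Between replicates, chi-square per degree of freedom over genes was 7.23 to 33.7, so no library repeated another.

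Members and lists were chosen with earlier results of these data known. Values per library are given for the 10 called genes of largest effect at each time with a mean of at least 1 CPM in a group, for their receptors or ligands, and for others chosen after their values were seen. Of each pathway list the genes of smallest p were named, 2 per time where as many were called. One member, kept in the totals, and one gene of a pathway list are not reported here. Protein sequences were not used here. Coordinates and upstream sequences are RefSeq's, of GRCm38.p6. Python 3.11.15 drew the figures with matplotlib 3.10.9.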

Additional observations from a re-analysis of the deposited data

Results flagged for a closer look

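The paraquat effect differed between 4w and 1w for 25 chemokine genes, by the test of the difference itself, with adjusted p under 0.05 in edgeR's quasi-likelihood test. Values below are the log2 effect at 4w minus the log2 effect at 1w. Among ligands with a lower effect at 4w, the difference was -3.07 for Ccl2, -2.81 for Cxcl2 and -0.67 for Cxcl14. The atypical receptors sharing that direction were Ackr1 at -1.80 and Ackr3 at -1.59. The ligands with a higher effect at 4w were Ccl4 at 2.96, Ccl5 at 1.96, Ccl22 at 1.76, Ccl27b at 1.75, Ccl19 at 1.4, Ccl27a at 0.89 and Cxcl15 at 0.67. Among CC receptors it was 2.81 for Ccr6, 2.57 for Ccr8, 2.06 for Ccr4, 1.75 for Ccr9, 1.68 for Ccr7, 1.66 for Ccr10 and 1.47 for Ccr2. CXC and CX3C receptors gave 2.31 for Cxcr3, 2.06 for Cxcr6, 2.05 for Cxcr5 and 0.93 for Cx3cr1. The atypical receptors Ackr4 and Ccrl2 gave 1.03 and 0.93.

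For Ccr2, Ccl5 and Cxcl15 the saline controls of the 2 times also differed, so the difference mixes a change in PQ with one in control. PQ 4w replicate 3 was the highest of its group for Cxcr5 (18.8 CPM, with 7.53 and 7.14 CPM in replicates 1 and 2), Ccr6 (5.98 CPM, with 2.80 and 1.52 CPM) and Ccl19 (15.4 CPM, with 7.36 and 7.42 CPM). Without that library the differences between the times were 1.43 for Cxcr5, 2.14 for Ccr6 and 0.94 for Ccl19, all still called. For Ccr8 the difference was 3.36 without control 4w replicate 3. Leaving out 1 of several libraries ended the call for Ackr1 (adjusted p 0.0519 to 0.116), Ackr4 (0.0543 to 0.0731), Ccl19 (0.053 to 0.061), Ccr10 (0.0646 to 0.098) and Ccr4 (0.0508 to 0.0687), and for none of the other 20 genes.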

How the results depend on the processing

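Of 797 values of called genes under the alternatives, 710 kept direction and call, 87 were no longer called and 0 changed sign. With another fit, scaling or filter the calls at 1w stayed at 31 to 37 and at 4w at 21 to 26, except that 12 were called at 4w with the libraries of that comparison alone. Leaving out 1 library gave 29 to 32 calls at 1w, 13 to 24 at 4w, with 13 without control 4w replicate 1, 21 to 30 for the difference between the times, 30 to 37 for PQ 4w against PQ 1w and 0 to 5 between the controls. Of the calls, 27 of the 32 at 1w and 12 of the 25 at 4w were made without each of the 6 libraries in turn. At an adjusted p under 0.01 there were 12 calls at 4w, 15 for the difference and 0 between the controls, and with at least a 2-fold change 21 at 1w and 23 for PQ 4w against PQ 1w. Between the controls limma on log2(FPKM + 1) called 3, DESeq2 called 7, and 12 had an unadjusted p under 0.05 in edgeR's test on all libraries.

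With the replicate block the counts were 32 at 1w, 21 at 4w, 24 for the difference, 35 for PQ 4w against PQ 1w and 3 between the controls. Of 18 pairs of libraries with the same number, correlations of their deviations ran from -0.35 to 0.282 and 5 were over 0.1, so the numbers were not taken to pair libraries.

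The 34 changes of sign were all in genes that were not called. Leaving out 1 library gave ranges at 1w of -0.55 to 0.01 for Ccr8, -0.22 to 0.79 for Cxcl5 and -0.69 to 0.14 for Cxcr1. At 4w they were -0.67 to 0.49 for Ccl24, -0.03 to 0.19 for Ccl27a, -0.02 to 0.21 for Ccl27b, -0.25 to 0.26 for Ccl28, -0.05 to 0.50 for Ccl5, -0.13 to 0.26 for Ccr7, -0.21 to 0.03 for Ccrl2, -0.07 to 0.10 for Cxcl15, -0.84 to 0.32 for Cxcl5, -0.69 to 0.24 for Cxcr1, -0.39 to 0.03 for Cxcr4 and -0.56 to 0.30 for Cxcr5. Cxcl15 at 4w was 0.01 with DESeq2 or its size factors, 0.06 with library totals and 0.05 with limma on either FPKM scale. Ccl28 was 0.03 and 0 and Cxcr5 -0.02 and 0 at 4w with log2(FPKM + 0.1) and log2(FPKM + 1), and Cxcr5 was -0.04 with the block. The cause of these changes was not tested. Few counts limit Ccr8, Ccl20, Cxcl1, Cxcl2 and the 5 untested genes, and other called genes as well. At 1w Ccl27b had 12 counts over PQ and 38 over control, Ccl4 23 and 74, and Ccr6 24 and 79. At 4w Ccr4 had 86 counts over PQ and 31 over control, and Ccr10 96 and 36.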
